A study of Homo sapiens with 3 samples.

Results

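The genes described here encode the subunits, activators and assembly factors of the proteasome. They were chosen from a table of gene expression as the protein-coding genes whose symbols run from PSMA to PSMG followed by a number, and 49 of the 58735 genes in the table met this rule. RNA had been sequenced from 3 libraries, 1 for each group, and all carry the label HCT116, the name of a line grown from a human colorectal carcinoma. One group overexpressed ZEB1 K80R, in which a lysine of the transcription factor ZEB1 is replaced by arginine, another overexpressed wild-type ZEB1, and the last held an empty vector. All groups carried the treatment label control, and neither the promoter of the constructs nor whether a line was a clone or a pool is stated in the labels. By its title the series concerns ZEB1 K80R, the NF-κB and epithelial-mesenchymal axis, and pro-inflammatory genes.

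The proteasome degrades proteins tagged with ubiquitin. Its barrel, the 20S core, is built from rings of alpha subunits, which gate the entrance, and rings of beta subunits, of which PSMB5, PSMB6 and PSMB7 carry the cutting sites. The 19S cap binds ubiquitin, unfolds the substrate with its ring of ATPases and feeds it into the core. Under interferon gamma and other inflammatory signals many cells make PSMB8, PSMB9 and PSMB10, which take the places of PSMB5, PSMB6 and PSMB7 in newly built cores and form the immunoproteasome. PSME1 and PSME2 form PA28, a cap induced by the same signals. These changes favour peptides that fit MHC class I molecules. Colon epithelium, like most tissues, is known for constitutive proteasomes with a smaller immunoproteasome share.

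The reads behind the values summed to 13479517 for ZEB1 K80R, 14322537 for wild-type ZEB1 and 14764535 for empty vector, of which the 49 genes held 0.543%, 0.593% and 0.677%. Values are FPKM, fragments counted on a gene scaled to its length and to a library size. That size was 13321338, 13795840 and 15886593 in the same order of libraries. It was 0.9883, 0.9632 and 1.076 times the summed reads, so the values carry a factor between libraries beyond the read sums. The labels do not state where this factor came from, and its part in the differences was not tested. At these sizes 3 reads on a gene of 2 kb were worth an FPKM of 0.113, 0.109 and 0.0944. Since no group had a replicate, differences have no replicate check and no p-value is given. Bracketed ranges after a ratio are exact 95% counting intervals, which cover counting error only. In bulk RNA, fewer cells of a type and less RNA per cell cannot be told apart. ZEB1 stood at an FPKM of 10.3 in ZEB1 K80R, 9.83 in wild-type ZEB1 and 5.66 in empty vector, which does not show which library carries the K80R form. The labelled cell type was not borne out by its markers: 9 of 13 colon epithelial markers, EPCAM, CDH1 and CDX2 among them, had 0 reads in all libraries, and KRT8 and KRT18 alone passed an FPKM of 1. Of 10 leukocyte markers, whose cells make immunoproteasomes without induction, PTPRC and CD3E had 0 reads in all libraries. The list summed to an FPKM of 1.17 in ZEB1 K80R, 1.47 in wild-type ZEB1 and 0.469 in empty vector, and its highest member in each was CD74, which stood at 0.82 in wild-type ZEB1. The 7 mesenchymal markers, of which 5 had a mean FPKM of at least 1, summed to 589 in ZEB1 K80R, 707 in wild-type ZEB1 and 361 in empty vector. VIM, an intermediate filament gene of mesenchymal cells, stood at 436, 546 and 283 and made up most of each sum. Of the 5, 4 were at least 1.5-fold higher in each ZEB1 library than in empty vector as deposited. Among all protein-coding genes with such a mean 9.68% were in ZEB1 K80R and 12% in wild-type ZEB1. COL1A1 went the other way, at 0.680 in ZEB1 K80R, 0.930 in wild-type ZEB1 and 1.70 in empty vector. So did COL1A2, whose mean was under 1, at 0.16, 0.21 and 0.56 in the same order. The part of the mesenchymal markers in the proteasome results was not tested. The 4 endothelial markers summed to 0.47, 0.61 and 0.13. Mitochondrial genes took 9.75%, 7.77% and 1.29% of the reads in ZEB1 K80R, wild-type ZEB1 and empty vector.

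Of the 49 genes, 44 had a mean FPKM of at least 1 over the 3 libraries and were compared. They comprised 29 of 31 constitutive 20S and 19S subunits, all 5 immunoproteasome and PA28 subunits (PSMB8, PSMB9, PSMB10, PSME1 and PSME2), 6 of 7 assembly chaperones, the other activators PSME3 and PSME4, the inhibitor PSMF1, and PSMC3IP. PSMC3IP matched the rule by its symbol alone: it encodes a partner of recombinases in homologous pairing, not a proteasome subunit. The 5 genes under the filter were PSMA2, PSMA6, the 19S assembly chaperone PSMD9, and the tissue-restricted core subunits PSMA8, known from testis, and PSMB11, known from thymus. PSMA8 had 0 reads in all libraries, and PSMB11 had 4 reads in wild-type ZEB1 and 0 in ZEB1 K80R and in empty vector, where a count of 0 allows up to 3 reads.

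Levels per kilobase ranged widely among subunits that the assembled particle holds in equal numbers. The scaffold subunit of the 19S base, PSMD2, was highest in every library, with an FPKM of 189 in ZEB1 K80R, 199.8 in wild-type ZEB1 and 214 in empty vector. In the alpha ring PSMA7 led with 103, 131 and 145 in the same order of libraries, and PSMA1 was the lowest measured member, with 8.85 in ZEB1 K80R and 9.05 in wild-type ZEB1, from 389 and 412 reads, and 682 reads in empty vector. PSMA2 and PSMA6, which are as much a part of each alpha ring as PSMA7, stood near an FPKM of 1 throughout. PSMA2 was at 0.647, 1.01 and 0.767 and PSMA6 at 0.923, 0.791 and 1.13 in ZEB1 K80R, wild-type ZEB1 and empty vector.

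The lowest alpha subunits were those whose coding exons lie on the exons of another annotated gene. In GENCODE release 29 exons of another protein-coding gene on the same strand overlap those of PSMA1, PSMA2 and PSMA6, and the share of coding bases on another gene was 88.6% for PSMA1, 97.1% for PSMA2 and 70.4% for PSMA6. For the other measured alpha subunits no exonic base was shared. Outside the alpha ring the highest shares were 58.7% for PSMD9, 58.3% for PSMB10, 47.7% for PSMC1, which lies opposite NRDE2, and 28.4% for PSMD7, and PSMB8 shared 135 of its 963 coding bases. Of the same-strand genes, the one over PSMA6 (AL121594.1) had 7 reads in ZEB1 K80R, 1 in wild-type ZEB1 and 0 in empty vector, and the one over PSMB10 (AC040162.1) had 6, 13 and 6. How reads on shared exons were counted is not stated in the labels, so the levels of these members are uncertain. The part of the overlaps in these levels was not tested.

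**Figure D1:**
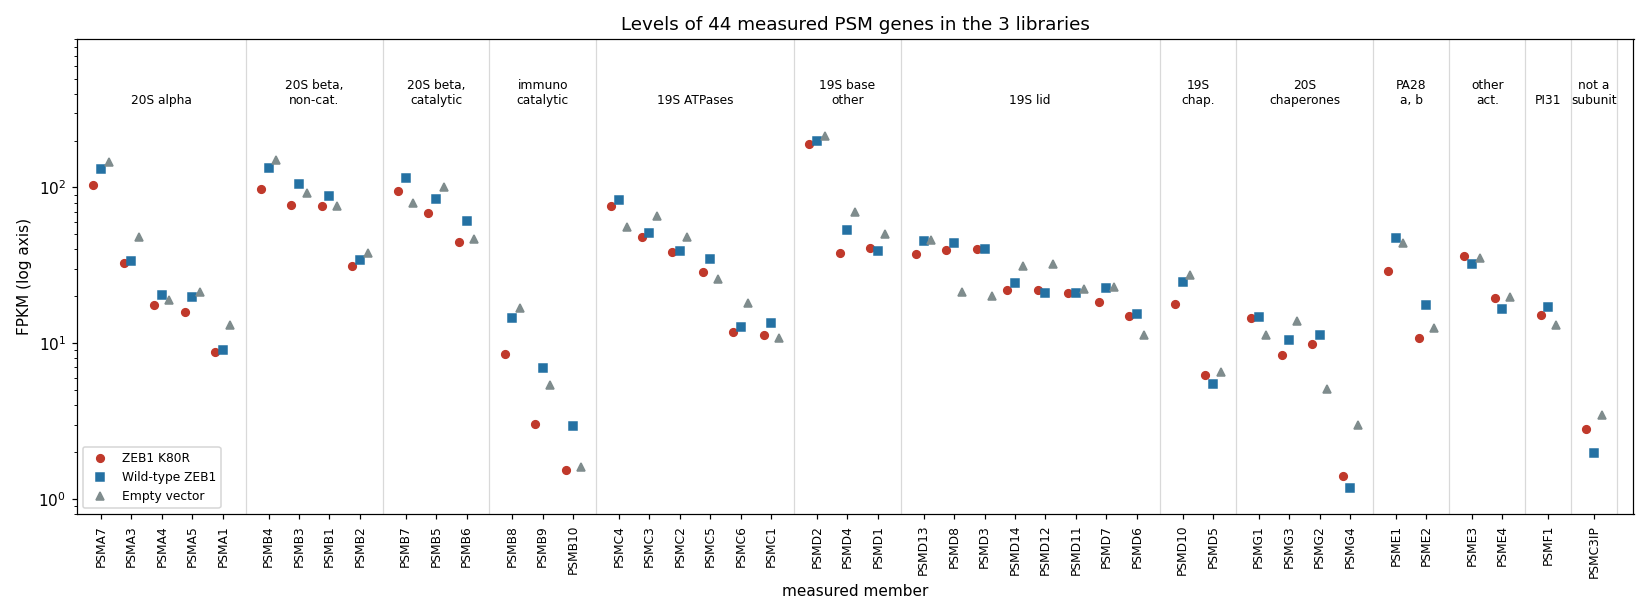
FPKM on a log axis of the 44 measured genes, grouped by role and ordered by mean level within a role, with 1 point per library for ZEB1 K80R, wild-type ZEB1 and empty vector. The immunoproteasome subunits PSMB8, PSMB9 and PSMB10 lie below the constitutive catalytic subunits in every library. Their ZEB1 K80R points lie lowest, for PSMB10 close to empty vector.

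The non-catalytic beta subunits ran in ZEB1 K80R from 31.4 for PSMB2 to 97.9 for PSMB4, in wild-type ZEB1 from 34.5 to 134 and in empty vector from 37.8 to 151, with the same subunits at both ends. The 19S ATPases ran from 11.2 (PSMC1) to 76.1 (PSMC4) in ZEB1 K80R, from 12.7 (PSMC6) to 83.5 (PSMC4) in wild-type ZEB1 and from 10.8 (PSMC1) to 65.7 (PSMC3) in empty vector. The lid, which holds the deubiquitinase PSMD14, ran from 14.9 (PSMD6) to 40.4 (PSMD3) in ZEB1 K80R, from 15.4 (PSMD6) to 45.3 (PSMD13) in wild-type ZEB1 and from 11.2 (PSMD6) to 46.3 (PSMD13) in empty vector. Of the chaperones that build the core, PSMG4 was lowest, at 1.40 in ZEB1 K80R, 1.18 in wild-type ZEB1 and 2.98 in empty vector, and PSMG1 was at 14.5, 14.8 and 11.3. Of those that build the 19S base, PSMD5 was at 6.27, 5.46 and 6.55 in the same order.

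In ZEB1 K80R against wild-type ZEB1 the immunoproteasome and PA28 subunits were lower. A member was counted as different where the ratio of FPKM + 1 was at least 1.5. By that measure 5 of the 44 members were lower in ZEB1 K80R, where 3.87% of 10372 protein-coding genes above the same filter were lower, and the 5 were PSMB8, PSMB9, PSMB10, PSME1 and PSME2. None of the 44 was higher, against 1.33% of all genes, and none of the 29 constitutive subunits passed in either direction. The median difference of log2(FPKM + 1) was −0.68 for the 5 immunoproteasome and PA28 subunits, −0.15 for the constitutive subunits and −0.03 for all 10372 genes. By direction alone, 36 of the 44 members were below 0, against 54.5% of all genes, and 8 were above 0, against 45.5%. The counting interval of the ratio lay below 1 for 28 members, against 33.2% of all genes, and above 1 for 4, against 26%. Such an interval is narrower for a gene with more reads. Here and below, the shares of intervals over all genes were not matched to the members for level. The medians and counts describe these libraries.

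PSMB9, the immunoproteasome subunit that takes the place of PSMB6 (ENSG00000240065; plus strand of chromosome 6, 32844136 to 32859585 in GRCh38), stood at an FPKM of 3.03 in ZEB1 K80R from 124 reads, 6.98 in wild-type ZEB1 from 296 reads and 5.41 in empty vector from 264 reads. It was lowest in ZEB1 K80R, and the ratio of ZEB1 K80R to wild-type ZEB1 was 0.434 (0.349 to 0.537). PSMB8, which takes the place of PSMB5 (ENSG00000204264; chromosome 6, 32840717 to 32844703, minus strand), had 8.49 in ZEB1 K80R, 14.5 in wild-type ZEB1 and 16.9 in empty vector, from 339, 598 and 806 reads. Here both other libraries stood above ZEB1 K80R, empty vector highest, and the ratio of ZEB1 K80R to wild-type ZEB1 was 0.587 (0.512 to 0.672). PSMB10, which takes the place of PSMB7 (ENSG00000205220; chromosome 16, 67934502 to 67937087, minus strand), was the scarcest, at 1.54 in ZEB1 K80R, 2.93 in wild-type ZEB1 and 1.60 in empty vector. Only 38, 75 and 47 reads lay behind these values. ZEB1 K80R and empty vector were close for PSMB10, wild-type ZEB1 was above both, and the ratio of ZEB1 K80R to wild-type ZEB1 was 0.525 (0.346 to 0.785).

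PSME1, the alpha subunit of PA28 (ENSG00000092010; plus strand of chromosome 14, 24136158 to 24138967), stood at an FPKM of 29.2 in ZEB1 K80R, 47.4 in wild-type ZEB1 and 44.1 in empty vector, from 692, 1164 and 1249 reads. ZEB1 K80R was again lowest, with a ratio to wild-type ZEB1 of 0.616 (0.560 to 0.677). PSME2, the beta subunit (ENSG00000100911; chromosome 14, 24143362 to 24147570, minus strand), had 10.9 in ZEB1 K80R, 17.6 in wild-type ZEB1 and 12.5 in empty vector. The ratio of ZEB1 K80R to wild-type ZEB1 for PSME2, from 519 and 869 reads, was 0.618 (0.554 to 0.690), close to that of PSME1. The quotient of PSME2 to PSME1 was 0.373 in ZEB1 K80R and 0.371 in wild-type ZEB1, so the PA28 subunits kept their proportion between these libraries, and it was 0.282 in empty vector.

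The activators outside the immunoproteasome stood the other way. PSME3, which forms the nuclear PA28 gamma cap (ENSG00000131467; chromosome 17, 42824385 to 42843758), was at 36.4 in ZEB1 K80R, 32.5 in wild-type ZEB1 and 35.5 in empty vector, and its ratio of ZEB1 K80R to wild-type ZEB1 was 1.12 (1.06 to 1.19). PSME4, which forms the cap PA200 (ENSG00000068878; chromosome 2, 53864067 to 53970840), was at 19.6, 16.5 and 19.8 in the same order, a ratio of 1.19 (1.12 to 1.26). The quotient of PSME1 to PSME3 was therefore 0.802 in ZEB1 K80R, 1.459 in wild-type ZEB1 and 1.245 in empty vector.

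**Figure D2:**
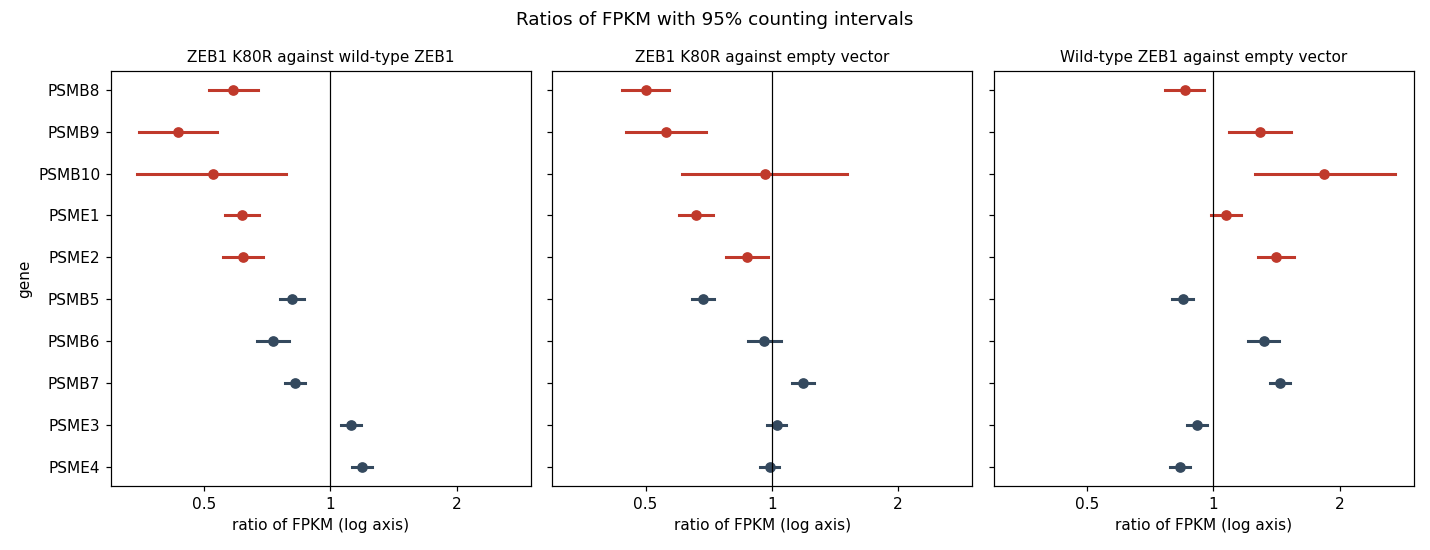
Ratios of FPKM on a log axis with exact 95% counting intervals as bars, for the immunoproteasome and PA28 subunits (red) and for the constitutive catalytic subunits and other activators (dark), in the 3 comparisons. In ZEB1 K80R against wild-type ZEB1 the red intervals all end below 0.8 and those of PSME3 and PSME4 start above 1.

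The constitutive core was also lower in ZEB1 K80R than in wild-type ZEB1, by smaller steps. All 12 measured constitutive 20S subunits had a difference below 0, against 54.5% of all genes, and for 10 of the 12 the counting interval of the ratio lay below 1, against 33.2%. The lowest difference was that of PSMB6, a catalytic subunit (ENSG00000142507; chromosome 17, 4796144 to 4798503), at 44.6 in ZEB1 K80R, 61.2 in wild-type ZEB1 and 46.4 in empty vector. Its ratio of ZEB1 K80R to wild-type ZEB1 was 0.729 (0.667 to 0.796). PSMB5 (ENSG00000100804; chromosome 14, 23016543 to 23035230), which carries the chymotrypsin-like site that clinical proteasome inhibitors bind, was at 68.6, 84.8 and 100.2 in ZEB1 K80R, wild-type ZEB1 and empty vector. PSMB7 (ENSG00000136930; chromosome 9, 124353466 to 124415444), which carries the trypsin-like site, was at 94.8, 115 and 79.8. The ratios of ZEB1 K80R to wild-type ZEB1 were 0.809 (0.758 to 0.864) for PSMB5 and 0.824 (0.780 to 0.871) for PSMB7, so all 3 catalytic subunits were lower in ZEB1 K80R, though none reached 1.5-fold.

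The 19S cap lay nearer to wild-type ZEB1. Of its 17 subunits 14 had a difference below 0 in ZEB1 K80R against wild-type ZEB1, where 54.5% of all genes did, and 9 had an interval below 1, where 33.2% did. The median difference was −0.10, against −0.29 for the 12 core subunits. The ubiquitin receptor PSMD4 had the lowest difference of the cap, at an FPKM of 37.9 in ZEB1 K80R, 53.3 in wild-type ZEB1 and 70.1 in empty vector. The base scaffold PSMD1 alone had an interval above 1, at 41.1 in ZEB1 K80R, 38.9 in wild-type ZEB1 and 49.9 in empty vector, with a difference of 0.08 between the ZEB1 libraries. Among the factors that build the particle, PSMD10, a base chaperone also known as gankyrin, was at 17.9 in ZEB1 K80R, 24.8 in wild-type ZEB1 and 27.5 in empty vector. The inhibitor PSMF1 was at 15.1, 17.2 and 13.1 in the same order.

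**Figure D3:**
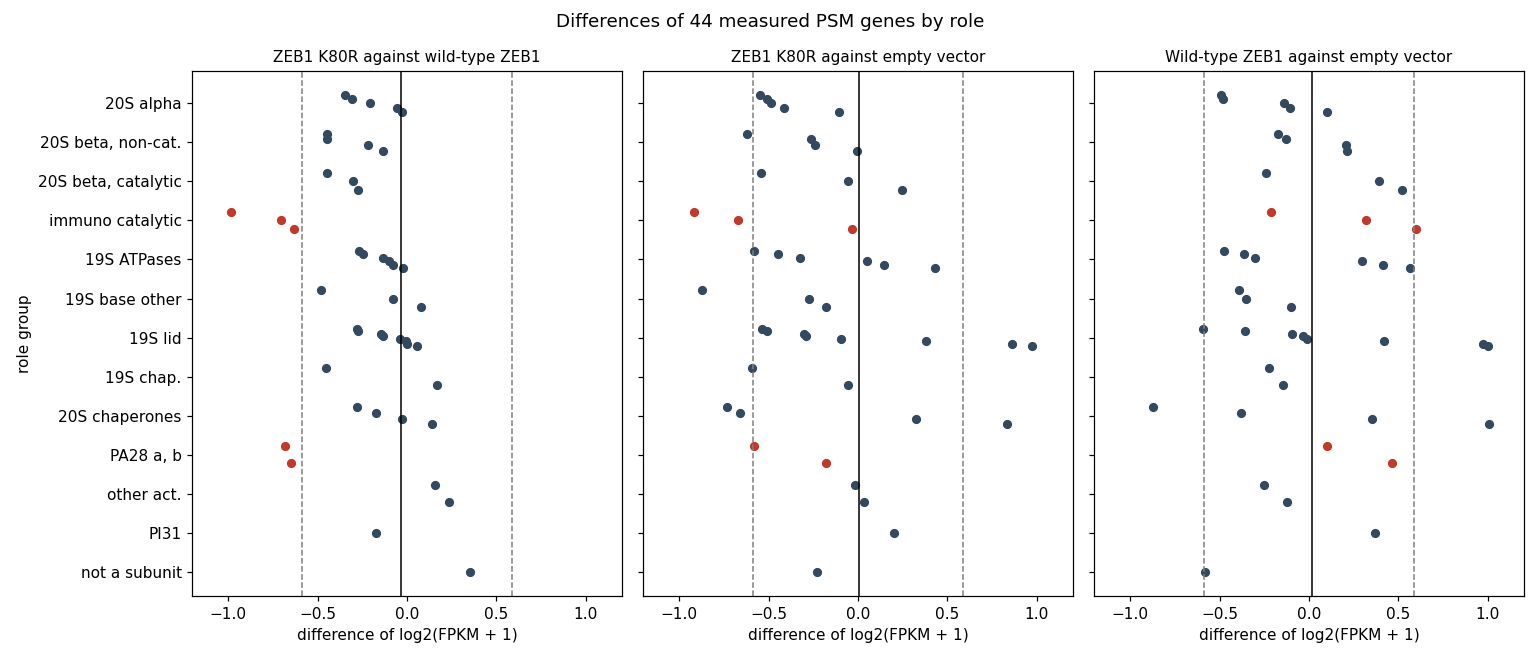
Difference of log2(FPKM + 1) of each measured gene by role, with 1 panel per comparison. Red points are the immunoproteasome and PA28 subunits, dashed lines mark 1.5-fold and the solid line is the median of 10372 protein-coding genes. In ZEB1 K80R against wild-type ZEB1 the 5 red points lie left of the dashed line and all others lie between the lines.

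Setting each immunoproteasome subunit against the constitutive subunit whose place it takes removes the scaling of a library from the comparison. The ratio of PSMB8 to PSMB5 was 0.124 in ZEB1 K80R, 0.171 in wild-type ZEB1 and 0.169 in empty vector. The quotient of that ratio was 0.725 (0.623 to 0.843) for ZEB1 K80R over wild-type ZEB1. Over empty vector it was 0.733 (0.634 to 0.845) for ZEB1 K80R and 1.01 (0.894 to 1.14) for wild-type ZEB1. The ratio of PSMB9 to PSMB6 was 0.068 in ZEB1 K80R, 0.114 in wild-type ZEB1 and 0.117 in empty vector, with quotients of 0.595 (0.470 to 0.751) for ZEB1 K80R over wild-type ZEB1, 0.583 (0.459 to 0.739) for ZEB1 K80R over empty vector and 0.98 (0.811 to 1.19) for wild-type ZEB1 over empty vector. For both pairs ZEB1 K80R was the low library, while wild-type ZEB1 and empty vector were not told apart by counting. The ratio of PSMB10 to PSMB7 was 0.0162 in ZEB1 K80R, 0.0255 in wild-type ZEB1 and 0.02 in empty vector. Its quotient was 0.637 (0.417 to 0.957) for ZEB1 K80R over wild-type ZEB1, and the intervals of the others, 0.812 (0.513 to 1.28) for ZEB1 K80R over empty vector and 1.27 (0.870 to 1.89) for wild-type ZEB1 over empty vector, held 1. Of the summed FPKM of the 6 catalytic genes, the immunoproteasome genes made up 5.91% in ZEB1 K80R, 8.54% in wild-type ZEB1 and 9.56% in empty vector.

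**Figure D4:**
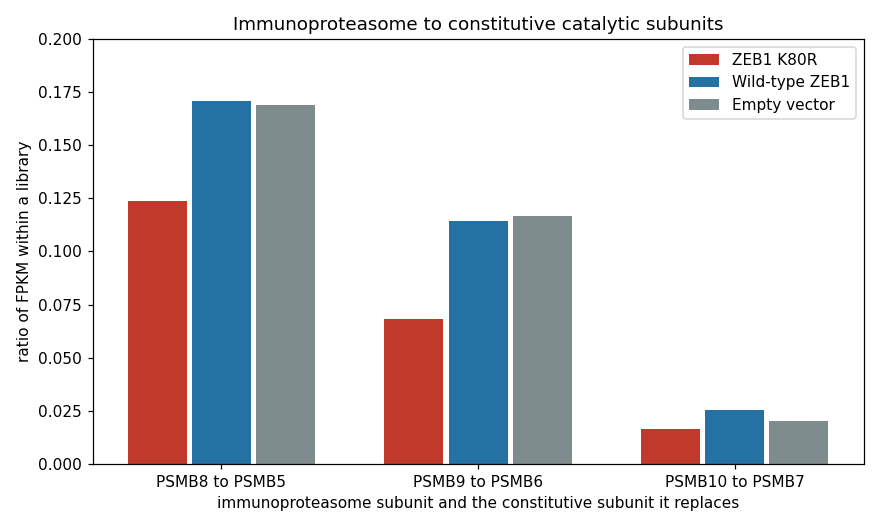
Ratio of FPKM within a library for each immunoproteasome subunit and the constitutive catalytic subunit it replaces, as bars for ZEB1 K80R, wild-type ZEB1 and empty vector on an axis that starts at 0. The ZEB1 K80R bar is the lowest of each trio, at 0.124, 0.068 and 0.0162.

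The promoters of the immunoproteasome and PA28 genes are shown because 4 of these 5 genes hold the same sequence near their start. Its part in their levels was not tested. Promoter windows of 300 bases, 250 before to 50 after a start, came from RefSeq (GRCh38.p14) and were found for 43 of the 49 members, in 53 windows. The motif of interferon regulatory factors was searched on both strands as GAAA, any 2 bases and again GAAA. It occurred in 3.57% of 35116 windows of all genes and in 7 of the 53 member windows. It was in 2 of the 32 windows of constitutive subunits and in 4 of the 6 windows of the immunoproteasome and PA28 genes. These 4 matches all read GAAAGCGAAA or its reverse complement, as did that of the core chaperone PSMG4. PSMG4 itself was not lower in ZEB1 K80R than in wild-type ZEB1, with a ratio of 1.19 (0.962 to 1.47). The remaining matches, in PSMA4 and PSMB4, had other letters in between. The match began 21 bases before the start of PSMB10, 28 before that of PSME2 and 4 before that of PSMB8, and 6 bases into PSME1. The stretches below run from 100 bases before to 50 after each start, 5′ to 3′ on the gene's strand, with the motif in capitals. PSMB8 had another start whose window held no match, and PSMB9, which had none, is shown beside the others. Of the 5 genes PSMB9 had the lowest ratio of ZEB1 K80R to wild-type ZEB1, 0.434.
PSMB10, chr16:67936801-67936950, minus strand: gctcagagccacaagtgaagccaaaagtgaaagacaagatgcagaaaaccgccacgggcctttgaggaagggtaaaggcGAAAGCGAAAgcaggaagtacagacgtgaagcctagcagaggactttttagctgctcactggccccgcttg
PSME2, chr14:24146561-24146710, minus strand: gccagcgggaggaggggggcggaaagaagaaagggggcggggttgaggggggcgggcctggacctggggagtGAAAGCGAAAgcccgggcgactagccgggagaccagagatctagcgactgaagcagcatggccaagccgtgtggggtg
PSMB8, chr6:32843998-32844147, minus strand: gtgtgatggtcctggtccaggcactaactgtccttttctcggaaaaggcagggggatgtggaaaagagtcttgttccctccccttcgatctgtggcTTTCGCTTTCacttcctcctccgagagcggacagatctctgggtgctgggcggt
PSME1, chr14:24136094-24136243, plus strand: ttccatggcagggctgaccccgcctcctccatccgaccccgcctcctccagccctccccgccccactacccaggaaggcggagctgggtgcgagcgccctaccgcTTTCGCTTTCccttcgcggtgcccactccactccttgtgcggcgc
PSMB9, chr6:32854092-32854241, plus strand: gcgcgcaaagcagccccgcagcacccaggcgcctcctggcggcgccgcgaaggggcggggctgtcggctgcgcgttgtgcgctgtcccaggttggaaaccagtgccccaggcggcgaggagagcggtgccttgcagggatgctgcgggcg

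The GAS element bound by STAT factors, searched as TTCNNNGAA, occurred in 7.66% of all windows, in 5 of 32 windows of constitutive subunits and in 1 of the 6 windows, that of PSMB8. The NF-κB consensus occurred in 11.3% of all windows and in none of the 6, and no match says only that these letters are not in the window. The core of the antioxidant response element, TGACNNNGC, through which NFE2L1 is known to raise proteasome genes, occurred in 13.3% of all windows, in 15 of the 53 member windows, in 7 of the 32 windows of constitutive subunits and in 3 of the 6, those of PSMB9, PSME1 and PSME2. In the 6 windows no match of one motif overlapped that of another. Each motif was searched on both strands, and a match is a description of the letters and not a site of binding. No factor's binding was measured here.

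Of the 5 genes 4 have another of them nearby in the genome. PSMB8 and PSMB9 lie on opposite strands in the MHC region of chromosome 6 and overlap by 568 bases as annotated. The peptide transporter gene TAP1 lies opposite PSMB9 within its bounds, TAP2 lies 1936 bases from PSMB8, and PSME1 and PSME2 lie 4394 bases apart on chromosome 14. The transporter genes differed from each other. TAP1 had an FPKM of 14.01 in ZEB1 K80R, 20.3 in wild-type ZEB1 and 11.7 in empty vector, a ratio of ZEB1 K80R to wild-type ZEB1 of 0.691 (0.634 to 0.753). TAP2 had 13.7, 10.6 and 9.35, a ratio of 1.30 (1.19 to 1.42). The strand setting of the counts is not stated in the labels, so reads of PSMB8 and PSMB9 on their shared bases cannot be told apart.

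Other genes of class I antigen presentation and its regulators were counted as a list of 28, of which 25 passed the filter. In ZEB1 K80R against wild-type ZEB1, 5 were lower by 1.5-fold, against 3.87% of all genes, and none was higher, against 1.33%. The median difference was −0.28, against −0.03 for all genes. IRF1, the interferon regulatory factor known to induce immunoproteasome genes, was at an FPKM of 3.20 in ZEB1 K80R, 7.97 in wild-type ZEB1 and 2.56 in empty vector, a ratio of ZEB1 K80R to wild-type ZEB1 of 0.401 (0.352 to 0.456). Wild-type ZEB1 stood apart for IRF1, with the others close together. IFNGR2, a chain of the interferon gamma receptor, was at 8.17, 18.1 and 6.95 and NFKB1, an NF-κB subunit, at 8.51, 15.4 and 10.4 in the same order. The class I heavy chain HLA-B was at 4.92, 12.2 and 3.40, and its reads may be split among near-identical copies. Its annotated bounds also overlap those of HLA-C on the same strand, and whether exons are shared was not checked.

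Against empty vector, most proteasome genes of the ZEB1 K80R library were lower, with 33 of 44 members below 0, against 49.5% of all genes, and 11 above 0, against 50.5%. The counting interval lay below 1 for 27 members, against 35.7% of all genes, and above 1 for 9, against 36.5%. By 1.5-fold, 7 members were lower, against 10.3% of all genes, and 3 were higher, against 9.68%. The lower members were the immunoproteasome subunits PSMB8 and PSMB9, the core subunit PSMB4, the ubiquitin receptor PSMD4 and the chaperones PSMD10, PSMG3 and PSMG4. The ratio of ZEB1 K80R to empty vector was 0.502 (0.441 to 0.570) for PSMB8, 0.560 (0.449 to 0.696) for PSMB9 and 0.541 (0.509 to 0.575) for PSMD4. PSMB4, at 97.9 in ZEB1 K80R, 134 in wild-type ZEB1 and 151 in empty vector, had a ratio of ZEB1 K80R to empty vector of 0.649 (0.620 to 0.680). PSMD10 had one of 0.650 (0.586 to 0.719) and PSMG4 one of 0.469 (0.395 to 0.555). PSMG3, at 8.46, 10.5 and 13.97, had one of 0.606 (0.513 to 0.714). These members were highest in empty vector, except PSMB9, which was highest in wild-type ZEB1. The median difference was −0.58 for the immunoproteasome and PA28 subunits, −0.27 for the constitutive subunits and 0.01 for all genes. PSMB10 was close to empty vector, with a ratio of ZEB1 K80R to empty vector of 0.964 (0.612 to 1.51).

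The wild-type ZEB1 library differed from empty vector in both directions. Of the 44 members 18 were above 0, against 52% of all genes, and 26 below 0, against 48%. The counting interval lay above 1 for 17, against 37.9%, and below 1 for 24, against 34.7%. By 1.5-fold, 4 of the 44 members were higher, against 12% of all genes, and 2 were lower, against 7.63%. The higher members were the lid subunits PSMD3 and PSMD8, the core chaperone PSMG2 and PSMB10, and the lower ones PSMD12, a lid subunit, and PSMG4. The median difference was 0.32 for the immunoproteasome and PA28 subunits, which turned to −0.09 when the libraries were rescaled to a common sum, and −0.10 for the constitutive subunits, which was −0.56 at a common sum. PSMB10 had a ratio of wild-type ZEB1 to empty vector of 1.84 (1.26 to 2.71), PSMB9 of 1.29 and PSME2 of 1.41 (1.28 to 1.56), whereas PSMB8 was lower in wild-type ZEB1, at 14.5 against 16.9. The immunoproteasome subunits thus did not stand together in this comparison.

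The lid subunits PSMD3 and PSMD8 and the chaperone PSMG2 were higher in both ZEB1 libraries than in empty vector. PSMD3 was at an FPKM of 40.4 in ZEB1 K80R, 40.5 in wild-type ZEB1 and 20.1 in empty vector, and PSMD8 at 39.8, 43.8 and 21.4. PSMG2, a chaperone of alpha ring assembly, was at 9.84, 11.2 and 5.08. The ratio of ZEB1 K80R to empty vector was 2.01 (1.89 to 2.14) for PSMD3, 1.86 (1.72 to 2.01) for PSMD8 and 1.94 (1.66 to 2.26) for PSMG2. That of wild-type ZEB1 to empty vector was 2.02 (1.89 to 2.15), 2.05 (1.90 to 2.21) and 2.21 (1.90 to 2.57) for the same genes. At a common sum their differences were still above 0, between 0.45 and 0.66. PSMD12 was lower in both, at 21.9 in ZEB1 K80R, 21.0 in wild-type ZEB1 and 32.2 in empty vector, with a ratio of wild-type ZEB1 to empty vector of 0.653 (0.613 to 0.695). For PSMG4 that ratio was 0.395 (0.330 to 0.471). The comparisons with empty vector share that library. Genes with reads numbered 24325 in ZEB1 K80R, 23457 in wild-type ZEB1 and 18928 in empty vector, which also had the lowest mitochondrial share of reads, and the part of this in the differences was not tested.

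Scaling touched the comparisons with empty vector far more than that between the ZEB1 libraries. At a common sum the median of all protein-coding genes was −0.41 for ZEB1 K80R against empty vector, −0.41 for wild-type ZEB1 against empty vector, and −0.02 for ZEB1 K80R against wild-type ZEB1. The members past 1.5-fold against empty vector were then 0 higher and 26 lower of 44 in ZEB1 K80R, where 4.06% of all genes were higher and 36.3% lower. In wild-type ZEB1 1 was higher and 20 were lower, where 5.15% of all genes were higher and 36.6% lower. Of the 11 members above 0 in ZEB1 K80R against empty vector 8 turned below 0, PSMB7 and PSMC4 among them, and of the 18 in wild-type ZEB1 against empty vector 11 did, PSMB6 and PSMB9 among them. In ZEB1 K80R against wild-type ZEB1 a single member turned, PSMD3, whose difference of −0.003 was near 0.

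Partners of the proteasome outside the naming rule were counted as a list of 29 genes, all measured, with ubiquitin genes, shuttle factors and regulators among them. None differed by 1.5-fold between ZEB1 K80R and wild-type ZEB1, where 1.33% of all genes were higher and 3.87% lower, and the median difference was −0.05. Against empty vector, 1 was higher in ZEB1 K80R, where 9.68% of all genes were, and 3 were lower, where 10.3% were. In wild-type ZEB1 3 were higher, where 12% of all genes were, and 1 was lower, where 7.63% were. These counts are near the shares over all genes or below them. At a common sum 10 were lower and none was higher in either ZEB1 library against empty vector, where 36.3% of all genes were lower in ZEB1 K80R and 36.6% in wild-type ZEB1. The ubiquitin precursor genes RPS27A, at an FPKM of 102 in ZEB1 K80R, 142 in wild-type ZEB1 and 307 in empty vector, and UBB, at 87.4, 117 and 167, were lowest in ZEB1 K80R, and both are uncertain because near-identical copies exist. The deglycosylase NGLY1, which activates NFE2L1, was at 4.63 in ZEB1 K80R, 7.07 in wild-type ZEB1 and 7.51 in empty vector. ADRM1, a ubiquitin receptor of the cap, was at 38.4, 48.2 and 26.9, and NFE2L2, a regulator of oxidative stress genes, at 12.4, 15.3 and 9.82. TXNL1, a thioredoxin bound to the cap, was at 7.71, 7.74 and 4.74, higher in both ZEB1 libraries than in empty vector. NFE2L1, which drives proteasome genes when the proteasome is inhibited, was at 84.2, 82.5 and 67.7, and its ratio of ZEB1 K80R to wild-type ZEB1 was 1.02 (0.986 to 1.06).

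Against empty vector, 6 of the 25 class I genes were higher in ZEB1 K80R, where 9.68% of all genes were, and 11 in wild-type ZEB1, where 12% were. None was lower in either, where 10.3% of all genes were in ZEB1 K80R and 7.63% in wild-type ZEB1. At a common sum none was higher and 2 were lower in ZEB1 K80R, where 4.06% of all genes were higher and 36.3% lower. In wild-type ZEB1 7 were then higher and none was lower, where 5.15% of all genes were higher and 36.6% lower. Their median difference was 0.27 for ZEB1 K80R, which turned to −0.12 at a common sum, and 0.52 for wild-type ZEB1, which was 0.12 at a common sum. The aminopeptidase ERAP2, at an FPKM of 22.7 in ZEB1 K80R, 22.3 in wild-type ZEB1 and 11.5 in empty vector, was alike in both ZEB1 libraries. TAPBP, the tapasin of the peptide-loading complex, was at 51.2, 63.5 and 29.2, IFNGR1, a chain of the interferon gamma receptor, at 13.5, 18.6 and 8.05, and IRF2, a relative of IRF1, at 12.1, 16.4 and 6.42. For these 3 genes ZEB1 K80R lay between wild-type ZEB1 and empty vector. They were named for being at least 1.5-fold higher in ZEB1 K80R than in empty vector, so ZEB1 K80R could not be lowest for them. For PSMB8, PSMB9, PSME1 and PSME2 ZEB1 K80R was the lowest library. For PSMB10 ZEB1 K80R and empty vector were not told apart by counting, from 38 and 47 reads. Some genes of the class I list were also lowest in ZEB1 K80R, NFKB1 and HLA-C among them. HLA-C, whose annotated bounds overlap those of HLA-B, was at 6.14 in ZEB1 K80R, 7.66 in wild-type ZEB1 and 7.58 in empty vector.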

How the data were processed

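Gene expression was measured in 3 libraries labelled HCT116, grouped by the genotype in the labels. The authors deposited FPKM values for 58735 genes; CASAVA, DESeq2 1.20.0, featureCounts 1.5.0-p3 and the build hg38 are listed without roles, per the submitters' processing notes. The aligner, strand setting and annotation are not given in the sources used here. All identifiers were found in GENCODE release 29 (GRCh38). FPKM times gene length was a whole multiple of 1 step per library for 100.0% of values above 0 (tolerance 0.05 reads), which gave reads. They served for exact conditional (Clopper-Pearson) intervals of FPKM ratios and of odds ratios, computed with scipy 1.17.1 and checked on simulated data. Differences are of log2(FPKM + 1), which understates the differences of low genes. The filter kept genes whose FPKM averaged 1 or more over the libraries. A gene high in 1 library can pass through it alone.

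The members and lists were chosen with earlier results of these data known. Named in full were the catalytic subunits, PSME1 to PSME4, members past 1.5-fold and the extremes of each role. Alternatives were other pseudocounts, filters, thresholds and scalings. Some genes of the class I list are counted but not reported by name here.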

Additional observations from a re-analysis of the deposited data

How the results depend on the processing

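Between ZEB1 K80R and wild-type ZEB1 the medians of the constitutive and of the immunoproteasome and PA28 subunits moved by less than counting error under every alternative run. The quotients of the 3 catalytic pairs stayed within their counting intervals in every comparison, with pseudocounts of 1 and 0.1. Of the 33 recomputed medians 29 moved by less than counting error. The cause of the changes below was not tested, beyond the shift of all genes by the scaling.

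Rescaled to a common sum, the median of the constitutive subunits was −0.71 for ZEB1 K80R and −0.56 for wild-type ZEB1 against empty vector. That of the immunoproteasome and PA28 subunits was −1.03 for ZEB1 K80R and turned to −0.086 for wild-type ZEB1. Members at least 1.5-fold higher or lower were then 0 and 26 in ZEB1 K80R and 1 and 20 in wild-type ZEB1, against empty vector. With the fold threshold lowered to a difference of 25%, 6 were higher and 18 lower in ZEB1 K80R against empty vector, where 23.2% of all genes were in each direction. They were 12 and 11 in wild-type ZEB1 against empty vector, where 25.3% and 20.7% of all genes were, and 1 and 11 in ZEB1 K80R against wild-type ZEB1, where 9.95% and 16.9% were. With a filter at a mean FPKM of 5, 1 member was lower in wild-type ZEB1 against empty vector, because PSMG4 was no longer compared. Leaving out subunits that share exonic bases with another gene, an alternative chosen after seeing the data, moved the median of the constitutive subunits by less than counting error in all 3 comparisons. It was not run for the immunoproteasome and PA28 subunits. All 5 of them share exonic bases with another gene, from 0.5% for PSME1 to 34.8% for PSMB10.

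Depth limited PSMB10 most, with 38 to 75 reads per library. No paired analysis was possible because each group had 1 library.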

Other observations

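Pseudogenes and antisense genes that share the proteasome symbols were not among the members. PSMC1P1, a processed copy of PSMC1 on chromosome 3, was the highest pseudogene, at an FPKM of 3.92 in ZEB1 K80R, 5.55 in wild-type ZEB1 and 3.53 in empty vector, beside 11.2, 13.5 and 10.8 for PSMC1 itself. PSMB8-AS1, which overlaps PSMB8 and PSMB9, was at 0.385 in ZEB1 K80R, 0.111 in wild-type ZEB1 and 0.161 in empty vector, from 10, 3 and 5 reads. The counting interval of its ratio of ZEB1 K80R to wild-type ZEB1, 0.889 to 19.5, held 1. PSMA3-AS1 was at 6.46, 5.61 and 5.80 in the same order, beside 32.7, 34.0 and 48.2 for PSMA3.

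PSMC3IP, the recombination gene that shares the symbol, was at 2.80 in ZEB1 K80R, 1.97 in wild-type ZEB1 and 3.45 in empty vector, and without it the median of the remaining 43 measured members in ZEB1 K80R against wild-type ZEB1 was −0.17.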
